A study of Mus musculus with 4 samples.

Results

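Interferon response and MHC class I genes were followed in C8-D1A cells, an established mouse line labelled as astrocytes, after exposure to MBP. They are 38 genes, taken by symbol from a list of the pathway out of the 24169 rows of the deposited table, and all 38 had a row. They fall into 12 sensors, factors and receptors, 19 antiviral effectors and 7 genes of antigen presentation. The MBP group was 2 libraries of C8-D1A cells kept with 1 mM MBP for 24 h, and the control group was 2 libraries of untreated C8-D1A cells. No vehicle control, genotype or further treatment is given. The labels give the compound only as MBP. The series title concerns dibutyl phthalate, a plasticizer whose main metabolite, monobutyl phthalate, is commonly abbreviated in this way, and it names astrocyte activation and the JAK2 and STAT3 pathway.

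Cells detect viral nucleic acid with cytosolic sensors that switch on interferon genes through interferon regulatory factors. Secreted type I interferon binds the receptor pair Ifnar1 and Ifnar2 and activates a complex with Stat2 and Irf9, which binds the interferon-stimulated response element (ISRE) in its target genes. Type II interferon binds Ifngr1 and Ifngr2 and acts on the GAS element. MHC class I molecules, a heavy chain paired with beta-2 microglobulin and loaded with peptide by the TAP transporter and tapasin, are induced by both, and resting glial cells express them weakly.

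Each library held 23571000 to 25907000 reads, as worked out from the spacing of its FPKM values and rounded. Of 11 astrocyte markers 7 lay under 1 FPKM on average over the libraries, Gfap and Slc1a3 among them, while S100b, Sox9, Glul and Vim lay above it. FPKM is fragments per kilobase of gene, scaled to the reads mapped in the library, so levels can be compared between genes. The table holds 7 microglia and macrophage markers, of which 5 lay under 1 FPKM on average. Ptprc had 4 and 3 reads in MBP and 0 and 4 in controls, and Itgam had 0 and 0 in MBP and 1 and 0 in controls. The summed FPKM of these 7 was 9.33 and 10.9 in MBP and 10.7 and 11.4 in controls, mostly from Tmem119 and Cd68. Tmem119 was lower in MBP without overlap (248 and 303 reads in MBP, 310 and 323 in controls), and Cx3cr1 was higher without overlap (36 and 29 reads in MBP, 22 and 13 in controls). Their part in the results was not tested. In these bulk samples fewer cells of a type and less RNA per cell cannot be told apart. Nothing in the labels says that libraries came from separate cultures, so p-values measure only the spread between these samples.

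The sequences below are shown because the ISRE is the element through which type I interferon acts, and some of these promoters hold its core. RefSeq promoters of GRCm38.p6, 250 bases before to 50 after the start site, matched 30 of the 38 genes. The ISRE core was searched as GAAA, any 2 bases and GAAA on both strands. It was present in 14 of these 30 genes and in 1079 of 27025 genes with a promoter in the table, or 3.99%. By role it was in 4 of 12 sensors, factors and receptors, 8 of 12 effectors and 2 of 6 genes of antigen presentation. Capitals mark the core, read as GAAA on the gene's strand or as TTTC where the match lies on the other strand.

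B2m, chr2:122147540-122147565, plus strand: aagaacatGAAACTGAAAatgggaaa
Bst2, chr8:71537579-71537610, minus strand: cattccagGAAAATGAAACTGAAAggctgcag
Ddx58, chr4:40239806-40239831, minus strand: tgaggcagTTTCGATTTCctatggcc
Gbp2, chr3:142620596-142620621, plus strand: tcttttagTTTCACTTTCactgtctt
Gbp3, chr3:142559991-142560022, plus strand: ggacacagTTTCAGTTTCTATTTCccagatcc
H2-T23, chr17:36032808-36032833, minus strand: cctactgcTTTCTCTTTCataaagac
Ifih1, chr2:62646206-62646231, minus strand: agagaatcGAAACAGAAAccgatctg
Ifit1, chr19:34640777-34640821, plus strand: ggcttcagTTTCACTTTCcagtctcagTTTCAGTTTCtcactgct
Ifit3, chr19:34583365-34583390, plus strand: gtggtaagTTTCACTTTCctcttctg
Ifit3, chr19:34583399-34583424, plus strand: taagtctgTTTCAGTTTCtactttcc
Irf2, chr8:46739496-46739521, plus strand: ggggaagtGAAAATGAAAttgacttt
Isg15, chr4:156200867-156200904, minus strand: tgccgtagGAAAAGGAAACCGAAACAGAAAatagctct
Oas1a, chr5:120907522-120907553, minus strand: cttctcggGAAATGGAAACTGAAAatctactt
Rsad2, chr12:26456555-26456580, minus strand: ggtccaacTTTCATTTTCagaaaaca
Stat2, chr10:128270268-128270293, plus strand: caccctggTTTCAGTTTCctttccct

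In Isg15 3 cores run into each other between 78 and 66 bases before the start site. In Bst2 and Oas1a a pair of cores overlaps on the gene's strand, and in Gbp3 on the other strand. The GAS core, TTC, any 3 bases and GAA, was in 8 of 30 genes (Bst2, Ifi35, Ifit2, Ifnar1, Ifnar2, Irf1, Irf2 and Oas1a) against 2582 of 27025, or 9.55%. In Bst2 it overlaps the ISRE core. A match is a description of these letters and does not show binding.

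**Figure D1:**
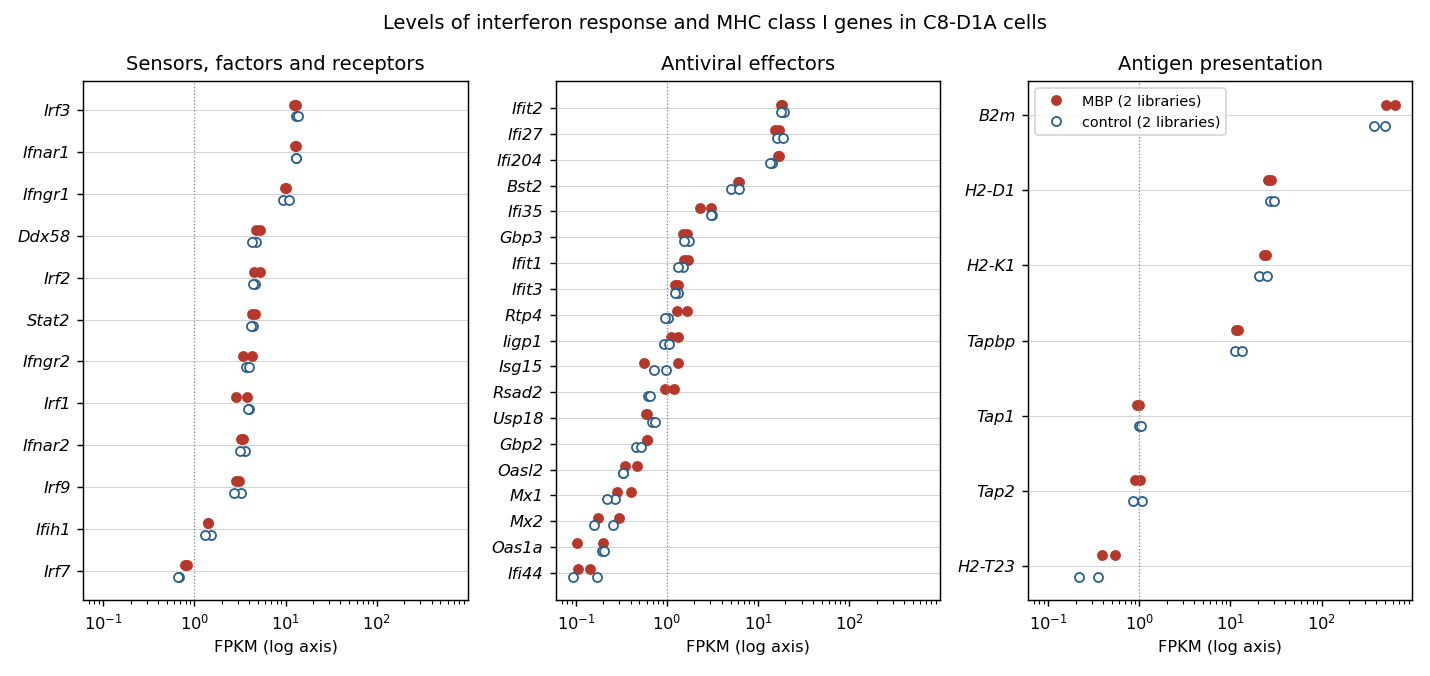
FPKM of the 38 genes in each library, on a log axis, by role and ordered by mean level. Filled red points are the MBP libraries, open blue points the controls, and the dotted line marks 1 FPKM. B2m stands far above the rest, and 9 of the 19 antiviral effectors lie under 1 FPKM on average.

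The sensors, factors and receptors had a median FPKM of 4.11 over the libraries, with 11 of 12 genes at 1 or above. The effectors had a median of 1.10, and 9 of 19 lay under 1. Antigen presentation spanned the widest range, from 0.375 for H2-T23 to 504 for B2m, which ranked 29 among all 24169 genes. The next in order were H2-D1 at 27.6, H2-K1 at 23.2, Ifit2 at 18.3, Ifi27 at 16.9 and Ifi204 at 15.3. The range of Ifi27 overlapped those of both Ifit2 and Ifi204, so its place between them is not resolved, while Ifit2 lay above Ifi204 in every library.

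No gene of the 38 was called between MBP and control. Limma's test on log2(FPKM + 1) took genes with at least 1 FPKM in at least 2 libraries, which kept 12403 genes and 26 of the 38. At an adjusted p under 0.05 it called 0 of the 26, against a background of 0% (0 of 12403). The smallest adjusted p among them was 0.486. Without adjustment, at p under 0.05, 1 of the 26 was higher in MBP, where the background was 3.81%, and 0 were lower, where it was 5.87%. Limma-voom on recovered reads also called 0, of the 37 that averaged 10 reads or more, where it called 0.124% of 14518 genes. At its unadjusted p under 0.05, 4 of the 37 were higher in MBP (772 of the 14518 genes) and 0 lower (891 of 14518). Its median log2 fold change was 0.00412 for sensors, factors and receptors (12 genes), 0.15 for effectors (18) and -0.00933 for antigen presentation (7). Over its 14518 genes the median was -0.0034. The groups did not overlap in 5 of the 26 with MBP higher (background 21.3%) and in 2 with MBP lower (background 23.5%). The median log2 fold change, MBP minus control, was -0.00243 for sensors, factors and receptors (11 tested), 0.06 for effectors (10) and -0.00346 for antigen presentation (5), beside -0.00477 over all genes tested.

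**Figure D2:**
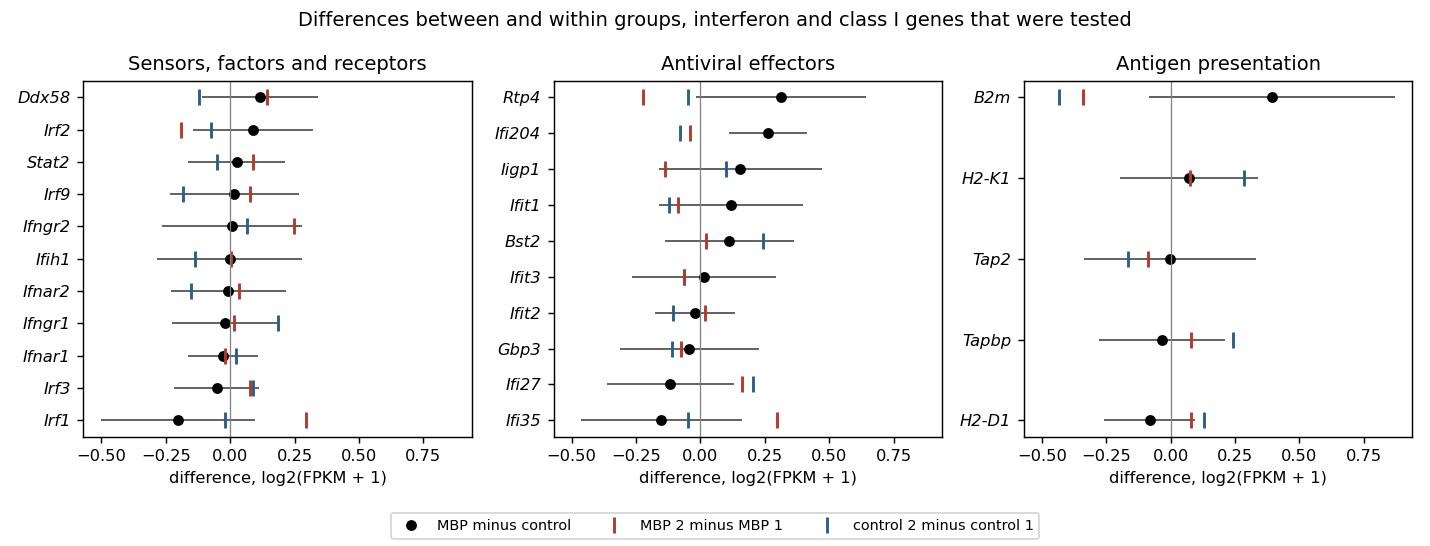
Differences on the log2(FPKM + 1) scale for the 26 genes that passed the filter, by role. Black points with bars are MBP minus control with limma's 95% interval, red ticks MBP 2 minus MBP 1 and blue ticks control 2 minus control 1. The interval leaves out 0 for Ifi204 alone, and the ticks of B2m, at -0.34 and -0.43, lie about as far from 0 as its point at 0.39.

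The cytosolic RNA sensors were present at low levels. Ddx58, which encodes RIG-I (chromosome 4, 40203773 to 40239828, GRCm38), had 4.70 and 5.29 FPKM in MBP, against 4.76 and 4.30 in controls. The groups overlapped, and the log2 fold change was 0.12 (95% interval -0.11 to 0.34). Ifih1, the related sensor MDA5, had 1.40 and 1.41 FPKM in MBP and 1.52 and 1.30 in controls, a log2 fold change of -0.00243 (-0.29 to 0.28). Both MBP values of Ifih1 lay between the controls.

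Among the interferon regulatory factors, Irf3, the constitutive factor downstream of the sensors, was the most abundant. It had 12.4 and 13.2 FPKM in MBP and 12.9 and 13.7 in controls (log2 fold change -0.05, -0.22 to 0.11). Irf7, the inducible factor that amplifies interferon production, lay under the filter at 0.829 and 0.787 FPKM in MBP and 0.685 and 0.663 in controls. Its groups did not overlap, on 75 and 77 reads in MBP against 63 and 59 in controls. Within each library Irf3 stood 15.0-fold and 16.7-fold above Irf7 in MBP and 18.8-fold and 20.7-fold in controls.

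Irf1, an activator that interferon gamma induces through GAS, had the lowest log2 fold change of the 26, with 2.88 and 3.76 FPKM in MBP and 3.98 and 3.91 in controls. Both MBP libraries lay below both controls, but MBP 1 and MBP 2 were further apart than the groups. The log2 fold change was -0.20 (SE 0.117, 95% interval -0.50 to 0.10, limma adjusted p = 0.585). Irf2, which competes with Irf1 for its sites, had 5.28 and 4.50 FPKM in MBP and 4.68 and 4.39 in controls (0.09, -0.15 to 0.32). Stat2 had 4.25 and 4.58 FPKM in MBP and 4.41 and 4.22 in controls, and its partner Irf9 had 2.89 and 3.10 in MBP and 3.21 and 2.71 in controls. Their log2 fold changes were 0.03 (-0.16 to 0.21) and 0.02 (-0.24 to 0.27), with overlapping groups in both.

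The receptor chains were expressed in every library. Ifnar1 had 12.9 and 12.7 FPKM in MBP and 12.9 and 13.2 in controls, and Ifnar2 had 3.27 and 3.37 in MBP and 3.58 and 3.12 in controls. Their log2 fold changes were -0.03 (-0.17 to 0.11) and -0.01 (-0.23 to 0.22). Ifnar2 shares 9.46% of its exon length with Gm21970 on the same strand, so part of its reads is uncertain. Of the interferon gamma receptor, Ifngr1 had 9.96 and 10.1 FPKM in MBP and 9.46 and 10.9 in controls, a log2 fold change of -0.02 (-0.23 to 0.19). Ifngr2 had 3.45 and 4.29 FPKM in MBP and 3.72 and 3.94 in controls, a log2 fold change of 0.01 (-0.27 to 0.28). In both pairs the first chain was the more abundant in every library, 3.76-fold to 3.93-fold in MBP and 3.61-fold to 4.22-fold in controls for Ifnar1 over Ifnar2, and 2.35-fold to 2.88-fold in MBP and 2.55-fold to 2.77-fold in controls for Ifngr1 over Ifngr2.

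The ligands looked up were Ifnb1, Ifne, Ifnk and Ifng. Only Ifnb1 and Ifne, both type I, had a row in the deposited table. Ifnb1, interferon beta, had 0 and 1 reads in MBP and 0 and 0 in controls. Ifne, interferon epsilon, had 3 and 5 reads in MBP and 4 and 2 in controls.

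Among the effectors, Ifi204 had the lowest unadjusted p in limma, the only 1 under 0.05 among the 26 (background 3.81% for MBP higher). It encodes a PYHIN protein that binds DNA in the nucleus and cytosol (chromosome 1, 173747293 to 173766943, minus strand). It had 17.0 and 16.5 FPKM in MBP and 14.2 and 13.4 in controls, from 1449 and 1523 reads in MBP and 1233 and 1124 in controls. The MBP libraries lay above the controls by more than the libraries of a group differed. The log2 fold change was 0.26 (SE 0.0588, 95% interval 0.11 to 0.41), but limma's adjusted p was 0.486 (unadjusted p = 0.0065). Limma-voom gave 0.28 (0.11 to 0.44, adjusted p = 0.224), where its adjusted p was 0.218 for B2m and 0.237 for Rsad2. After correction for GC content and length the log2 fold change of Ifi204 was 0.21. Of its 50-base transcript stretches 20.0% also occur in other genes, led by Ifi211 with 14.8%, so its reads are uncertain.

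Ifit2 was the only abundant gene of its family. The Ifit proteins bind viral RNA or each other and block translation. Ifit2 had 18.0 and 18.2 FPKM in MBP and 19.1 and 17.7 in controls, a log2 fold change of -0.02 (-0.18 to 0.14). Ifit1 had 1.70 and 1.54 FPKM in MBP and 1.52 and 1.31 in controls (0.12, -0.16 to 0.40), with both MBP libraries above both controls. Ifit3 had 1.34 and 1.24 FPKM in MBP and 1.32 and 1.22 in controls, and shares 51.2% of its 50-base stretches with Ifit3b, so its level is uncertain. Within a library Ifit2 exceeded Ifit1 10.6-fold and 11.8-fold in MBP and 12.6-fold and 13.5-fold in controls. The promoter of Ifit2 holds a GAS core but no ISRE core in this window, whereas those of Ifit1 and Ifit3 hold a pair of ISRE cores each.

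Rtp4 and Rsad2 had the largest ratios of group means among the effectors. Rtp4 encodes a transporter protein of G protein-coupled receptors with antiviral activity. It had 1.67 and 1.29 FPKM in MBP and 1.02 and 0.956 in controls, from 85 and 71 reads in MBP and 53 and 48 in controls. The groups did not overlap, and the log2 fold change was 0.31 (SE 0.129, -0.02 to 0.64, limma adjusted p = 0.517). It was 0.52 with a pseudocount of 0.1, 0.49 as TPM and 0.56 in limma-voom (0.04 to 1.07, adjusted p = 0.401). Of its exon length 13.9% overlaps Gm45338 on the same strand. Rsad2, also called viperin, makes a chain-terminating nucleotide that stops viral RNA synthesis. It lay under the filter at 0.963 and 1.20 FPKM in MBP and 0.616 and 0.656 in controls, from 100 and 135 reads in MBP and 65 and 67 in controls, and both MBP libraries lay above both controls. Limma-voom on these reads gave a log2 fold change of 0.76 (95% interval 0.31 to 1.22), which did not pass (adjusted p = 0.237). In limma without the filter it was 0.35 on the log2(FPKM + 1) scale.

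The 250 bases upstream of Rsad2 and of B2m are shown because these genes had the largest ratio of means among the effectors and the largest fold change tested on the log2(FPKM + 1) scale. Capitals mark the ISRE core, which lies 120 bases before the start site in Rsad2 and 139 in B2m.

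Rsad2, chr12:26456453-26456702, minus strand: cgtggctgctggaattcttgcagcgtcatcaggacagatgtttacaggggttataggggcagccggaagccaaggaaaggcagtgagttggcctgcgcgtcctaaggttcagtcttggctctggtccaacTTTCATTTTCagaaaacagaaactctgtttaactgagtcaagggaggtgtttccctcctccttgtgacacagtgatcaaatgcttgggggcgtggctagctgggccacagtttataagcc
B2m, chr2:122147437-122147686, plus strand: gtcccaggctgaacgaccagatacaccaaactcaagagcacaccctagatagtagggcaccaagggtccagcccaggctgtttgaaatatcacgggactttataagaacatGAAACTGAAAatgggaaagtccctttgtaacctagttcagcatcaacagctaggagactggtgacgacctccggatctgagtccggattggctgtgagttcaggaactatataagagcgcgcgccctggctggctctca

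The other effectors showed no common direction. Bst2, tetherin, which holds budding virus at the cell surface, had 6.06 and 6.16 FPKM in MBP and 5.05 and 6.15 in controls. Its log2 fold change was 0.11 (-0.14 to 0.36), and -0.01 without control 1. Ifi27, a small mitochondrial membrane protein, had 15.2 and 17.1 FPKM in MBP and 16.3 and 19.0 in controls (-0.12, -0.36 to 0.13). Ifi35 had 2.32 and 3.08 FPKM in MBP and 3.16 and 3.02 in controls (-0.15, -0.47 to 0.16), where 1 MBP library was low. In both genes the groups overlapped. GTPases that attack vacuoles of intracellular pathogens were also among the effectors. Iigp1 had 1.32 and 1.11 FPKM in MBP and 0.921 and 1.06 in controls (0.16, -0.16 to 0.47), and its groups did not overlap. Gbp3 had 1.65 and 1.51 in MBP and 1.76 and 1.56 in controls (-0.04, -0.31 to 0.23). The groups of Gbp3 overlapped, and its sign turned without control 1 (0.01). Gbp2, of the same family, lay under the filter and was higher in MBP without overlap.

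The 9 effectors under 1 FPKM on average, Isg15, Usp18 and Mx1 among them, had low levels in both groups. Other effectors stood higher, with a mean of 18.3 FPKM for Ifit2, 16.9 for Ifi27 and 5.85 for Bst2. Isg15, the ubiquitin-like modifier, had 24 and 11 reads in MBP and 18 and 13 in controls, that is 1.33 and 0.562 FPKM in MBP and 0.978 and 0.730 in controls, and the 2 MBP libraries enclosed the controls. Usp18, which removes Isg15 from proteins and restrains the type I receptor, had 40 and 43 reads in MBP and 47 and 49 in controls. At 0.599 and 0.595 FPKM in MBP against 0.692 and 0.745 in controls, it was the 1 gene under the filter with both MBP libraries below both controls. Oasl2, of the oligoadenylate synthetase family, had 72 and 57 reads in MBP and 51 and 50 in controls, and Gbp2 had 36 and 39 in MBP and 28 and 31 in controls. Ifi44 had 21 and 17 reads in MBP and 14 and 25 in controls.

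Mx1, a dynamin-like GTPase that blocks influenza virus, had about 26 and 39 reads in MBP and 25 and 20 in controls, which are approximate since the values recovered were not whole. Mx2, listed as a polymorphic pseudogene in the deposited table, had 15 and 28 reads in MBP and 14 and 22 in controls. Oas1a had 9 and 5 reads in MBP and 9 and 9 in controls, and shares 57.6% of its 50-base stretches with Oas1g. At these depths differences of this size cannot be resolved: the voom interval for Isg15 ran from -0.93 to 0.96 on the log2 scale and that for Mx1 from -0.28 to 1.18.

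**Figure D3:**
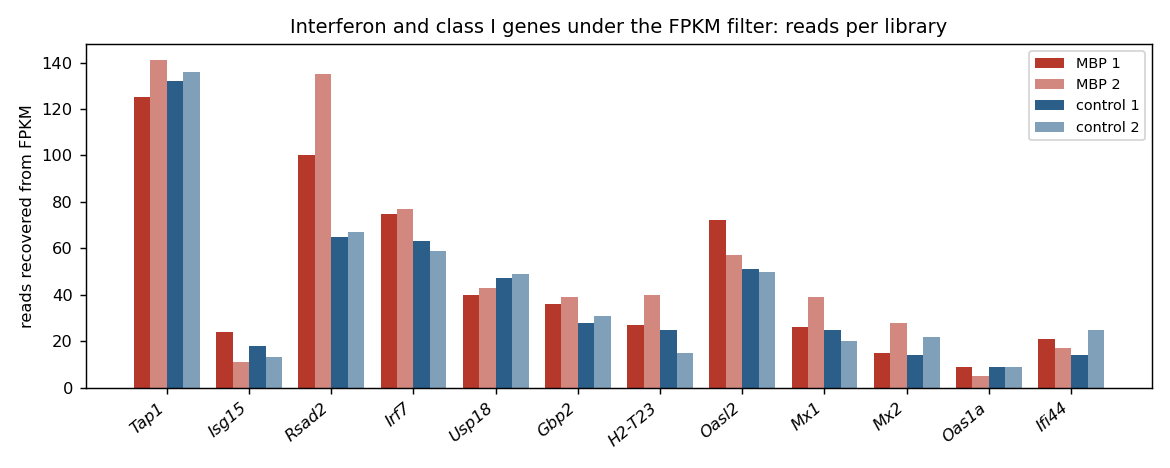
Reads recovered from FPKM for the 12 genes under the filter, 1 bar per library, ordered by mean FPKM. Red bars are MBP 1 and MBP 2, blue bars control 1 and control 2. Rsad2 has 100 and 135 reads in MBP against 65 and 67 in controls, and Isg15 and Oas1a have at most 24 in any library.

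Of the 12 genes under the filter, 11 had a mean of at least 10 reads. The groups did not overlap with MBP higher in 6 of these 11 (Irf7, Oasl2, Mx1, Rsad2, Gbp2 and H2-T23), where 20.4% of 2572 genes under the filter with as many reads did so. MBP was lower without overlap in 1 (Usp18), against 16.5%. Among genes with a promoter in the table, the 9 tested ones with an ISRE core had a median log2 fold change of 0.09. The 12 tested ones without a core had -0.02, beside -0.00477 over all genes tested. Rtp4, Ifi204 and Iigp1, at 0.31, 0.26 and 0.16, had no such promoter and are in neither group. Single genes ranged from -0.04 to 0.39 with a core and from -0.20 to 0.07 without. The split also went with level: the median FPKM was 1.46 over the 14 genes with a core and 3.74 over the 16 without. GC content, with which fold changes over the whole table moved, was not held equal between the 2 sets. The genes in the split are not independent of each other, and no test of it was made.

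In antigen presentation, B2m, the invariant light chain, was higher in both MBP libraries than in both controls, while the classical heavy chains overlapped between groups. B2m (chromosome 2, 122147686 to 122153083) had 639 and 504 FPKM in MBP and 502 and 372 in controls, or 571 ± 95.1 in MBP and 437 ± 92.2 in controls (SD, n = 2 each). The lower MBP library and the higher control library nearly met. The log2 fold change of 0.39 was the largest of the 26 on the log2(FPKM + 1) scale, though below that of Rtp4 with a pseudocount of 0.1, as TPM and in limma-voom (SE 0.186, -0.08 to 0.87, limma adjusted p = 0.54). Within groups B2m differed as much, by -0.34 for MBP 2 minus MBP 1 and -0.43 for control 2 minus control 1, and its log2 fold change ran from 0.18 without control 2 to 0.61 without control 1. Limma-voom, which counts on its 13154 and 11230 reads in MBP and 10511 and 7532 in controls, gave 0.39 (0.17 to 0.62, adjusted p = 0.218).

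H2-D1 (chromosome 17, 35262730 to 35267499) had 26.0 and 27.5 FPKM in MBP and 27.1 and 29.7 in controls, a log2 fold change of -0.08 (-0.26 to 0.10). H2-K1 (chromosome 17, 33996017 to 34000333, minus strand) had 23.1 and 24.4 FPKM in MBP and 20.3 and 24.9 in controls, a log2 fold change of 0.07 (-0.20 to 0.34). The groups overlapped for both, and the sign of H2-K1 turned without control 1 (-0.07). Per unit length B2m exceeded the sum of H2-D1 and H2-K1 13.0-fold and 9.71-fold in MBP and 10.6-fold and 6.80-fold in controls. Class I heavy chains form a multigene family: 12.8% of 50-base stretches of H2-D1 and 9.63% of H2-K1 also occur in other genes, so that part of their reads is uncertain.

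H2-T23 encodes the heavy chain of Qa-1, which engages inhibitory receptors of natural killer cells. It had 27 and 40 reads in MBP and 25 and 15 in controls, 0.390 and 0.534 FPKM in MBP against 0.355 and 0.220 in controls. The groups did not overlap, and limma-voom gave a log2 fold change of 0.69 (-0.07 to 1.46, adjusted p = 0.478). Of its 50-base stretches 13.6% also occur in other genes, so its reads are uncertain too.

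Peptide loading showed uneven levels. Tapbp, tapasin, which holds empty class I molecules at the transporter, had 11.5 and 12.2 FPKM in MBP and 11.1 and 13.3 in controls (-0.03, -0.28 to 0.21). The transporter subunits were about an order of magnitude lower. Tap1 had 0.953 and 0.994 FPKM in MBP and 0.990 and 1.05 in controls, and Tap2 had 1.02 and 0.898 in MBP and 1.08 and 0.853 in controls. Tapbp exceeded Tap1 12.1-fold and 12.3-fold in MBP and 11.2-fold and 12.6-fold in controls. The groups of all 3 genes overlapped. Of the exon length of Tapbp 24.9% overlaps Gm19412 on the opposite strand and 4.11% overlaps Zbtb22 on the same strand. Tap2 overlaps Gm15821 (14.1% of its exon length) and Gm20496 (4.36%) on the opposite strand, and Tap1 overlaps Psmb9 there (3.87%). The strand setting of the counts is not given, so part of the reads of Tapbp, Tap2 and Tap1 is uncertain.

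Further genes of the pathway were read from 3 lists, and limma and limma-voom called 0 in each. In signalling 13 genes were tested, of which 9 had a positive log2 fold change (5998 of all 12403 genes tested did) and 1 an unadjusted p under 0.05, with MBP lower (background 5.87%). In further effectors 14 of 19 tested were positive and 0 had such a p in either direction (background 3.81% for MBP higher). In further antigen presentation 3 of 11 were positive and 3 had such a p, all with MBP lower, against the same background of 5.87%. The genes with the lowest unadjusted p in each list were as follows. Socs1, the feedback inhibitor of JAK and STAT signalling, had 3.70 and 3.51 FPKM in MBP and 5.32 and 5.56 in controls. Its log2 fold change was -0.48 (-0.66 to -0.30, limma adjusted p = 0.433), and limma-voom gave -0.59 (-0.85 to -0.34, adjusted p = 0.077). Mavs, the mitochondrial adaptor of the RNA sensors, had 14.9 and 16.5 FPKM in MBP and 17.3 and 17.7 in controls (log2 fold change -0.15, limma adjusted p = 0.532). Herc6, which attaches Isg15 in mice, had 1.46 and 1.43 FPKM in MBP and 1.17 and 1.10 in controls (0.20, 0.568), and 13.7% of its exon length overlaps another gene on the same strand. Ifitm3, which blocks viral fusion, had 19.2 and 16.1 FPKM in MBP and 15.9 and 15.8 in controls (0.14, 0.62). Pdia3, the disulfide isomerase of class I assembly that also serves general protein folding, had 153 and 164 FPKM in MBP and 187 and 194 in controls (-0.26, 0.496). Psmb10, an immunoproteasome subunit, had 2.11 and 2.26 FPKM in MBP and 2.84 and 3.33 in controls (-0.36, 0.503).

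The other inducible immunoproteasome subunits, named after their values were seen, were near silent. Psmb9 had 16 and 13 reads in MBP and 7 and 11 in controls. Psmb8 had about 20 and 27 reads in MBP and 6 and 6 in controls, and limma-voom gave a log2 fold change of 1.82 (0.89 to 2.74, adjusted p = 0.143). Of 7 class II genes 3 were in the table, all under 1 FPKM in every library. H2-DMa and H2-DMb1, which load class II peptides, had 0.382 and 0.494 FPKM and 0.450 and 0.728 FPKM in MBP, against 0.476 and 0.491 FPKM and 0.719 and 0.914 FPKM in controls. Cd74, the invariant chain, had 0.296 and 0.438 FPKM in MBP and 0.146 and 0.0602 in controls.

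**Figure D4:**
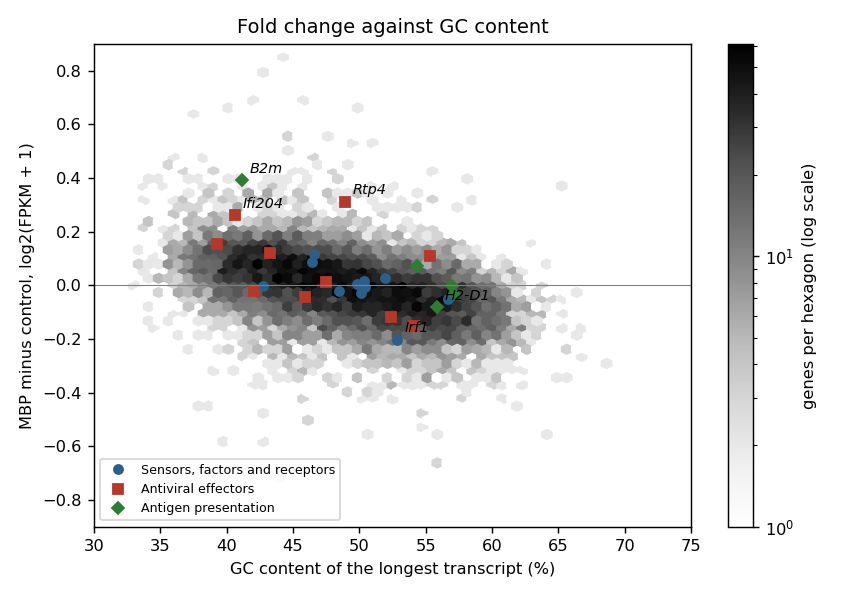
Log2 fold change (MBP minus control, of FPKM + 1) against the GC content of the longest transcript. Grey hexagons count all tested genes with a GC value, and coloured points are the interferon and class I genes by role. Genes of low GC content tend to lie above 0, and 78 of the 12389 genes fall outside the axes.

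Fold changes over the whole table moved with GC content, with Spearman's rho of -0.442 across 12389 genes, which are not independent replicates. Ifi204 and B2m have low GC content, 40.6% and 41.2%, and the class I heavy chains H2-D1 and H2-K1 have 55.9% and 54.3%. After a loess correction for GC content and length, B2m stood at 0.36, Rtp4 at 0.35, H2-K1 at 0.15, H2-D1 at 0.00 and Irf1 at -0.14. The median log2 fold change after correction was 0.02 for sensors, factors and receptors, 0.06 for effectors and 0.07 for antigen presentation. The part of GC content in these differences was not tested further.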

How the data were processed

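Total RNA of 4 samples was depleted of ribosomal RNA and made into libraries with a directional kit, per the labels' protocols. Tools and build named in the submitters' processing notes are HISAT2, bcl2fastq and GRCm38. The sources used here give no versions, counting program, annotation or strand setting. The authors deposited 1 table of FPKM per gene. Columns were matched to samples by title, and replicates were numbered in accession order, which pairs nothing.

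FPKM times exon length (GENCODE mouse release M21, holding 24121 of 24169 identifiers) came in whole steps, each worth 1 read. For single-exon genes at least 99.95% of the lower values were whole within 0.05, and for all genes 93.8% to 94.0%. These steps gave the depth and the reads per gene, whose precision covers counting error only.

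Values were tested two-sided as log2(FPKM + 1) with limma 3.58.1 in R 4.3.3 (eBayes, trended prior). Fold changes are MBP minus control, and p was adjusted by Benjamini-Hochberg over all genes with at least 1 FPKM in at least 2 libraries and a threshold of 0.05. Fold changes on this scale understate low genes. Intervals are limma's 95% intervals. The test was checked on simulated data, where it gave planted changes their right sign but made more false calls than the nominal share. Limma-voom used recovered reads, rounded, of genes that averaged 10 or more. Promoters are RefSeq's (GRCm38.p6). Stretches of 50 bases were compared between GENCODE transcripts.

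The genes, their roles and the further lists were chosen with earlier results of these data known. All 38 genes are named, and of further genes the 2 per list with the lowest unadjusted p, the ligands and the class II genes. Psmb8, Psmb9, Tmem119 and Cx3cr1 were named after their values were seen. Alternatives were another pseudocount, other filters and scalings, protein-coding genes, a GC and length correction, limma-voom and each library left out.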

Additional observations from a re-analysis of the deposited data

How the results depend on the processing

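With 2 libraries a group the intervals are wide, and 12 of the 38 genes lay under the filter. No alternative called any of the 38 genes. Over the whole table limma-voom on recovered reads called 18 genes, 1 higher and 17 lower in MBP, and every other alternative called 0. The 26 tested genes were refitted under each alternative, except that 11 of them passed a filter of 5 FPKM. With all libraries kept, 63 values could not move, since filters leave a gene's own fold change as it was. Of the other 130 values 118 kept their direction and 12 turned it. With a library left out, 84 of 104 kept it and 20 turned it. Over all alternatives together, 10 genes never turned their direction: B2m, Ddx58, Ifi204, Ifi27, Ifi35, Ifit1, Ifnar1, Iigp1, Irf1 and Rtp4. The log2 fold changes that turned were, as TPM, Ifih1 0.0164, Ifnar2 0.0129, Ifngr1 0.000516, Ifit2 0.000722, Tap2 0.0135. With median-of-ratios scaling it was Ifih1 0.000989. With the GC and length correction they were Irf3 0.0361, Ifnar2 0.0208, Ifngr1 0.00513, H2-D1 0.00118, Tap2 0.0654, Tapbp 0.0439. With 1 library left out in turn, the genes that turned ran from the lowest to the highest log2 fold change as follows: Ifih1 -0.0698 to 0.0649, Ifnar2 -0.0825 to 0.0687, Ifngr2 -0.12 to 0.13, Ifit2 -0.0734 to 0.0324, Bst2 -0.00991 to 0.23, Gbp3 -0.0976 to 0.0119, H2-K1 -0.0688 to 0.21, Tap2 -0.0853 to 0.0784, Irf9 -0.0754 to 0.11, Ifngr1 -0.11 to 0.0732, Ifit3 -0.0184 to 0.0468, Tapbp -0.15 to 0.087, Irf2 -0.00682 to 0.18, Stat2 -0.0183 to 0.0699. The median of sensors, factors and receptors ran from -0.0224 to 0.0508, its value without control 1. The median of antigen presentation ran from -0.0688 without control 1 to 0.087 without control 2, and that of effectors from 0.0216 to 0.0736. The lone library left in a group was then assumed to vary like the other group. The cause was not tested. No paired analysis was possible because the titles of the groups share fewer than 2 replicate numbers.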
